A study of Mus musculus with 2 samples.

Results

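A set of 9 genes that FoxO transcription factors are known to drive were followed through serum stimulation of mouse fibroblasts, namely Txnip, Fbxo32, Pik3ip1, Irs2, Insr, Sesn1, Sesn3, Ccng2 and Bcl6. The genes were chosen by name, from textbook knowledge of FoxO targets that rise when growth factors are withdrawn, and every array probe whose gene name matched was taken. Earlier results of these data were known at that choice. The shares of all genes given below are therefore a scale for the counts and not an unbiased contrast. All 9 were found among the 28233 named genes of the array, on 12 probes printed as 21 spots. The cells were an immortalized line of mouse embryonic fibroblasts (MEF) of the strain background C57BL/6 x B6:129 Ola, with the genotype Rosa26ERT2 Cre: THOC5 (flox/flox). In this line a tamoxifen-activated Cre recombinase, expressed from the broadly active Rosa26 locus, removes the floxed THOC5 gene, which encodes a subunit of the mRNA-export complex THO. The genotype labels read wildtype for control and THOC5 knockdown for depleted cells, while both sample titles give the floxed line. By those titles control cells carried the same alleles and received no tamoxifen. THOC5-depleted cells received tamoxifen for 2 days according to the labels, so that loss of THOC5 and exposure to tamoxifen or active Cre cannot be told apart. On 1 two-colour array per condition, Cy3 carried RNA of serum-starved, unstimulated cells and Cy5 carried RNA of the same kind of cells after 1 h of fetal calf serum (FCS). There was no replicate and no array with exchanged dyes, so every value below is given without a test, and a difference between the arrays includes any difference of culture or slide position. No RNA of cells kept in serum throughout was used here, so the rise on starvation that gives these genes their name was not measured.

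FoxO proteins are forkhead transcription factors that growth factors switch off. Insulin, insulin-like growth factors and other serum components activate PI3K, which activates the kinases AKT and SGK. These phosphorylate FoxO proteins and keep them out of the nucleus. In starved fibroblasts FoxO proteins are nuclear and their target genes are transcribed, which slows the cell cycle, saves energy and raises stress resistance, and a return of serum is known to shut these targets down. Several targets act back on the same pathway, since the insulin receptor gene Insr, the adaptor gene Irs2 and the PI3K inhibitor gene Pik3ip1 are themselves among them.

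FoxO proteins bind 2 short motifs, the forkhead core GTAAACA and the insulin-response core CAAAACA. Both were searched on both strands in the 250 bases upstream of each start site (RefSeq promoters, GRCm38.p6), where 7 of the 9 genes had an entry. The forkhead core was found upstream of Txnip alone among these 7 genes, and 3.17% of all 32851 promoters of that length hold it. The insulin-response core was found upstream of Ccng2 and Irs2, and 5.56% of all promoters hold it. The windows of these 3 genes and of Pik3ip1, which holds neither motif, are shown because the serum ratios of these genes span the whole range found below, with the motifs in capitals. They lie at chr3:96557707-96557956 (+) for Txnip, chr5:93267323-93267572 (+) for Ccng2, chr8:11008930-11009179 (-) for Irs2 and chr11:3330481-3330730 (+) for Pik3ip1, each read on the gene's strand.
Txnip: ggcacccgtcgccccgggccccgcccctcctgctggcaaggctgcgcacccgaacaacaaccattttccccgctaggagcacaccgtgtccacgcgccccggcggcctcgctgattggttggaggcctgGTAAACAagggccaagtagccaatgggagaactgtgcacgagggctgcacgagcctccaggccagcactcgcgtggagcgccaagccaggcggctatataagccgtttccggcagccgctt
Ccng2: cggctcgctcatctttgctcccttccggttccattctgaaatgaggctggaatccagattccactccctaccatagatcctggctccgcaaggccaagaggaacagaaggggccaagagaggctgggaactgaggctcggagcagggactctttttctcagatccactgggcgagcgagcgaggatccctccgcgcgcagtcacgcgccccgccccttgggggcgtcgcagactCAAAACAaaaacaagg
Irs2: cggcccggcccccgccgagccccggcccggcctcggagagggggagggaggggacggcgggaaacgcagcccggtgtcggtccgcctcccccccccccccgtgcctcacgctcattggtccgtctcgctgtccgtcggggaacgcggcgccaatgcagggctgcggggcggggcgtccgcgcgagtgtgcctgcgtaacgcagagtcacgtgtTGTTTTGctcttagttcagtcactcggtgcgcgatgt
Pik3ip1: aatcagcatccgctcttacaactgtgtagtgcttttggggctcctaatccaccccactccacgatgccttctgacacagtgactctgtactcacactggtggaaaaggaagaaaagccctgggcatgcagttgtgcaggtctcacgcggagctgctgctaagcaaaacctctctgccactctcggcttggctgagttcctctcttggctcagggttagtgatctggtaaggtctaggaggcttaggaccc
The forkhead core of Txnip lies 121 to 115 bases before the start site. The insulin-response core lies 16 to 10 bases before the start of Ccng2. In Irs2 it lies on the opposite strand, 37 to 31 bases before the start. A match is only a match of letters, and binding was not measured.

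In control cells 3 of the 9 genes fell within 1 h of serum, taking a fall as a Cy5 over Cy3 ratio of 1/1.5 or less. These were Txnip (3.49-fold lower), Fbxo32 (2.29-fold lower) and Pik3ip1 (1.84-fold lower), and the same limit was passed by 5.82% of the 18770 genes tested on that array. One gene, Irs2, rose (1.67-fold), against 6.71% of all genes that were higher by 1.5-fold or more. The other 5 genes did not pass the limit, with log2 ratios from -0.50 (Sesn1) to -0.11 (Insr). The median log2 ratio of the 9 genes was -0.45, against -0.02 for all genes, and 8 of the 9 were below 0, against 52.9% of all genes. These directions rest on the dye normalization within the array. Without it the median of all genes moved to 0.84, and relative to that shift the same 3 genes fell and 8 of the 9 were below the median.

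In THOC5-depleted cells 0 of the 9 genes fell and 0 rose by 1.5-fold. On that array 1.55% of the 18531 genes tested were lower and 3.48% were higher by this limit. The median log2 ratio of the 9 genes was -0.05, against -0.01 for all genes, and 6 of the 9 were below 0, against 52.7% of all genes. Txnip remained the lowest (log2 ratio -0.44) and Irs2 the highest (0.41). Log ratios of all genes were also less spread on this array (median absolute deviation 0.14, against 0.20 for control cells). Once they were stretched by 1.39 to the spread of the control array, 1 of the 9 genes, Txnip, passed the limit, against 3.80% of all genes.

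**Figure D1:**
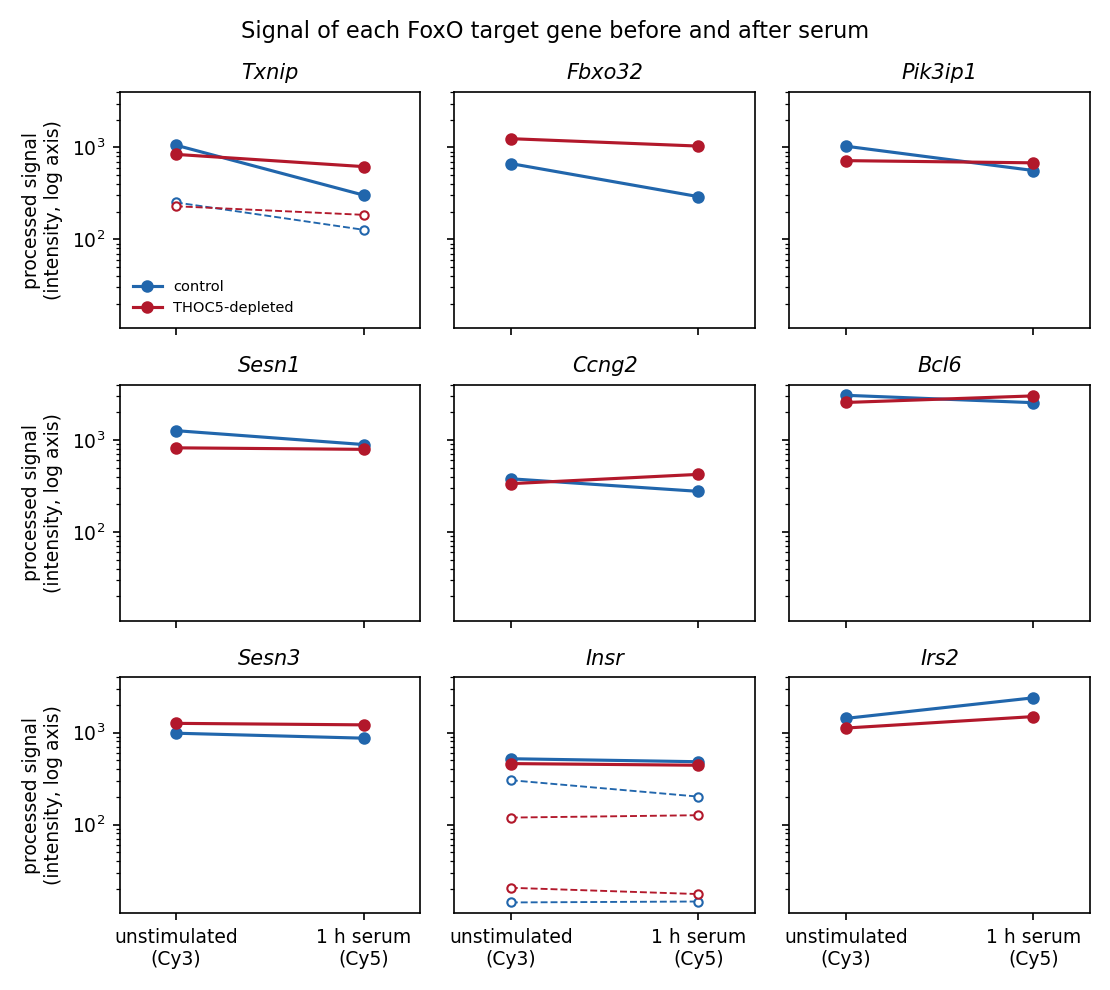
Processed signal (intensity, log axis) of each gene in unstimulated cells (Cy3) and after 1 h of serum (Cy5), with blue lines for the control array and red lines for the THOC5-depleted array. Filled points are the brightest probe of a gene and open points its other probes, and signals are not scaled between arrays. The blue line of Txnip drops from 1058 to 303 while its red line drops from 840 to 618.

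Of the genes that act on insulin signalling, Pik3ip1 encodes a membrane protein that inhibits PI3K. Its single probe (chr11:3242107-3242166 on mm9, plus strand) gave a signal of 1031 before and 561 after serum in control cells, and of 718 before and 680 after serum in THOC5-depleted cells. The value after serum in control cells was thus the lowest of the 4. On the control array its log2 ratio of -0.88 was lower than that of all but 2.35% of genes, and on the THOC5-depleted array it was -0.08.

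Irs2 encodes an adaptor that links the insulin and insulin-like growth factor receptors to PI3K. Its probe (chr8:11004490-11004549, minus strand) read 1425 before and 2386 after serum in control cells, and 1119 before and 1491 after serum in THOC5-depleted cells. Irs2 was thus the only one of the 9 genes that was higher after serum on both arrays, by 1.67-fold and 1.33-fold, and the second value was below the limit. In control cells 95.5% of genes had a lower ratio.

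Insr encodes the insulin receptor, and its 3 probes disagreed. The brightest (chr8:3154024-3154083, minus strand) read 519 before and 481 after serum in control cells, and 460 and 441 in THOC5-depleted cells, so that it lay near its starting value on both arrays. A second probe (chr8:3151667-3151726) read 303 and 201 in control cells, which is 1.51-fold lower and just past the limit, and 119 and 126 in THOC5-depleted cells. The third (chr8:3155472-3155531) was not well above background on the control array, with signals of 14.2 and 14.5, and read 20.5 and 17.5 in THOC5-depleted cells. The starts of the outer probes lie 3805 bases apart. By the rule of the brightest probe Insr was not counted as fallen, and of the 11 probes of the 9 genes tested in control cells 5 passed the limit for a fall (2 of Txnip and 1 each of Fbxo32, Pik3ip1 and Insr), against 5.78% of the 23669 probes with a gene name that were tested. In THOC5-depleted cells 0 of 12 probes passed, against 1.74% of the 23345 tested.

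Among genes that restrain metabolism and growth, Txnip encodes a protein that binds thioredoxin and limits glucose uptake. Its brighter probe (chr3:96365147-96365206, plus strand) read 1058 before and 303 after serum in control cells, and 840 and 618 in THOC5-depleted cells. Its second probe (chr3:96364206-96364265) lies 941 bases upstream and read 252 and 127 in control cells, and 229 and 185 in THOC5-depleted cells. Both probes were lower after serum on both arrays, and on both the drop was larger in control cells. They differed in size, with log2 ratios of -1.80 and -0.99 in control cells, and lay closer together in THOC5-depleted cells, with -0.44 and -0.31. With its brighter probe Txnip held rank 49 from the lowest of the 18770 genes in control cells, and rank 613 of 18531 in THOC5-depleted cells.

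Fbxo32 encodes atrogin-1, the substrate-binding subunit of a ubiquitin ligase known from muscle wasting. Its probe (chr15:58011752-58011811, minus strand) was printed as 10 spots, the most of the 9 genes. In control cells the spots read 614 to 714 before serum and 269 to 310 after it. In THOC5-depleted cells they read 1174 to 1288 before serum and 964 to 1085 after it. The ranges of spots before and after serum did not overlap on either array. The ratio of the single spots ran from 0.42 to 0.46 in control cells and from 0.80 to 0.86 in THOC5-depleted cells, so that these ranges did not overlap either. The log2 ratio of control cells was -1.19 ± 0.04 (SD over 10 spots), against -0.27 ± 0.03 (SD over 10 spots) after THOC5 depletion. Spots of 1 array share their RNA, and this SD holds no difference between cultures. Over 271 and 272 probes of several spots each on the control and THOC5-depleted array, the median spot SD was 0.03. Spot ranges therefore part at small differences, and the share of other probes whose ranges did not overlap was not counted.

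Sesn1 and Sesn3 encode sestrins, which hold back the growth kinase mTOR and limit oxidative damage. Sesn1 (chr10:41628012-41628071, plus strand) read 1263 before and 892 after serum in control cells, and 821 and 791 in THOC5-depleted cells. Its ratio in control cells was 1.42-fold lower, short of the limit, and in THOC5-depleted cells the signals differed by 1.04-fold. Sesn3 (chr9:14130452-14130511, plus strand) read 984 and 869 in control cells and 1259 and 1212 in THOC5-depleted cells, and was thus close to its starting value on both arrays. The log2 ratios in control cells were -0.50 for Sesn1 and -0.18 for Sesn3.

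Ccng2 and Bcl6 act on proliferation. Ccng2 encodes cyclin G2, an unusual cyclin that goes with cell-cycle arrest. It (chr5:93705131-93705190, plus strand) read 378 before and 276 after serum in control cells, and 335 and 423 in THOC5-depleted cells. Bcl6 encodes a transcriptional repressor. Its probe (chr16:23965160-23965219, minus strand) read 3061 and 2544 in control cells and 2557 and 3015 in THOC5-depleted cells. Both genes were therefore lower after serum in control cells and higher in THOC5-depleted cells, with neither value past the limit. The log2 ratios were -0.45 and 0.34 for Ccng2, and -0.27 and 0.24 for Bcl6. Among all 18005 genes tested on both arrays, 8.13% had opposite directions with both ratios beyond the usual spread between probes.

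**Figure D2:**
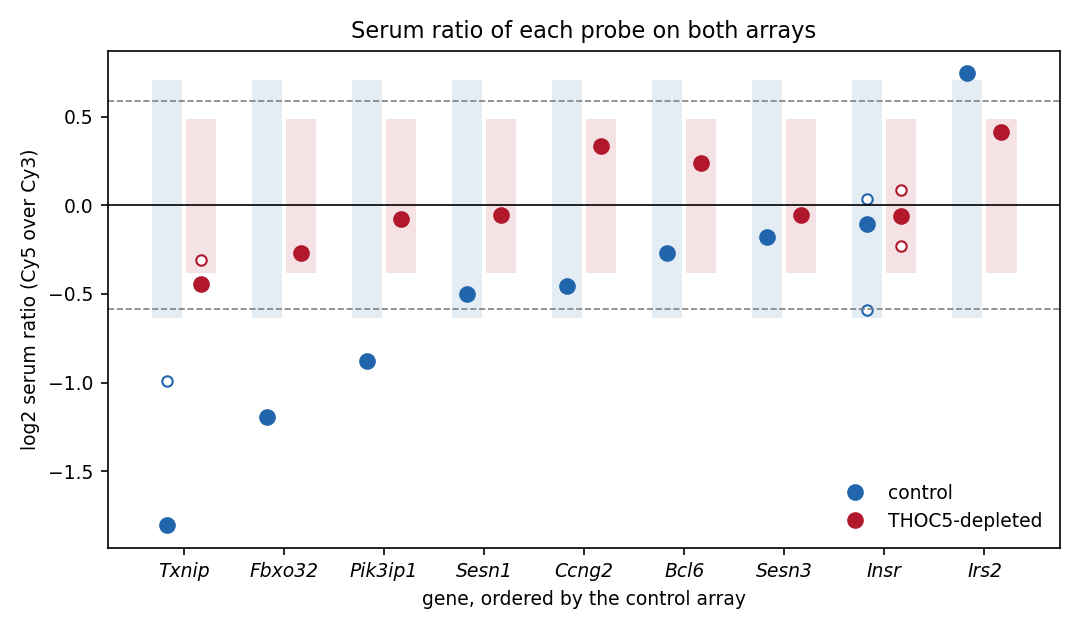
Log2 ratio of 1 h serum over unstimulated signal for every probe on the control array (blue) and the THOC5-depleted array (red), with filled points for the brightest probe and open points for others. Shaded bars span the 5th to 95th percentile of all genes on that array and dashed lines mark 1.5-fold. Txnip, Fbxo32 and Pik3ip1 lie below the blue bars at -1.80, -1.19 and -0.88, and of the red points only that of Txnip (-0.44) lies below its bar. Without dye normalization the zero line itself would move by 0.84 and 0.75, which changes no gene's side of the median of all genes.

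The spread between probes gives a yardstick for the order of the 9 ratios. Over 3775 genes with several probes, the median SD of the log2 ratio between probes of a gene was 0.12 for control cells, against 0.11 after THOC5 depletion. In control cells, 5 of the 8 gaps between neighbours in the order were larger than this. By their brightest probes, the gaps from Txnip to Fbxo32, from there to Pik3ip1 and from there to Sesn1 were 0.61, 0.32 and 0.38. The place of Txnip depends on the probe, since its own probes differed by 0.82, the second (-0.99) lay above Fbxo32 (-1.19), and the mean of both was -1.40. Sesn1 and Ccng2 were not set apart, with a gap of 0.05, nor was Bcl6 from Sesn3 (0.09) or Sesn3 from Insr (0.07), while Irs2 stood 0.85 above Insr. In THOC5-depleted cells 3 of the 8 gaps were larger than the spread. Pik3ip1, Insr, Sesn1 and Sesn3 lay together there, with gaps between neighbours of at most 0.02, and the gaps from Bcl6 to Ccng2 (0.10) and from Ccng2 to Irs2 (0.08) were also within the spread.

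The change of the ratio between the arrays was then taken as the log2 ratio in THOC5-depleted cells minus that in control cells. Of the 9 genes, 4 had a ratio at least 1.5-fold higher in THOC5-depleted cells and 0 had a lower one, against 4.44% of all 18005 genes for higher and 4.04% for lower. These 4 were Txnip (difference 1.36), Fbxo32 (0.93), Pik3ip1 (0.80) and Ccng2 (0.79). The median difference of the 9 genes was 0.50, against 0.01 for all genes. Irs2 was the only one with a difference below 0 (-0.33), while 48.7% of all genes were below 0. A smaller fall in THOC5-depleted cells was common in this data set. Of 1076 genes that fell in control cells and were tested on both arrays, 1029 fell less or not at all in THOC5-depleted cells, and 15.1% also passed the limit there. With all 4 signals above 200, as for Txnip, Fbxo32 and Pik3ip1, it was 13 of 405 genes (3.21%). In the other direction, of 268 genes that fell in THOC5-depleted cells 60.8% also passed the limit in control cells, with a median log2 ratio of -0.77 there and -0.78 on the array they were picked on. With all 4 signals above 200 this was 13 of 22 genes (59.1%).

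Signals were also compared between the arrays, after their mean signals were brought to a common distribution. Such values are less precise than a ratio within an array. In unstimulated cells, 2 of the 9 genes were higher in THOC5-depleted than in control cells by at least 1.5-fold and 0 were lower, against 6.3% of 19044 genes higher and 6.22% lower. They were Fbxo32 (2.28-fold) and Sesn3 (1.58-fold). Txnip, Irs2, Bcl6, Ccng2 and Insr had log2 differences between -0.06 and 0.09, so these 5 genes started from near-equal signals before serum was added. The second Insr probe differed from the brightest and was 2.21-fold lower in THOC5-depleted cells, and the third was not well above background in control cells. Pik3ip1 and Sesn1 were lower by 1.18-fold and 1.27-fold, within the limit. The median log2 difference of the 9 genes was 0.06. Without any scaling between arrays the median of all genes was -0.26, and relative to it the differences of Fbxo32 and Sesn3 were 1.16 and 0.61.

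After 1 h of serum, 4 of the 9 genes were higher in THOC5-depleted cells and 0 were lower, against 7.3% of 18664 genes higher and 6.44% lower. Fbxo32 was 4.33-fold higher, Txnip 2.47-fold, Ccng2 1.83-fold and Sesn3 1.72-fold. Bcl6 (1.48-fold) and Pik3ip1 (1.47-fold) were just short of the limit, Insr and Sesn1 had log2 differences of 0.14 and 0.10, and Irs2 had -0.37. The second Insr probe went the other way, with -0.47, and the third, with 0.42, was not well above background in control cells. The median log2 difference of the 9 genes was 0.06 before serum and 0.57 after it, against 0.0020 for all genes after serum. The unstimulated and serum comparisons draw on the same arrays as the 2 serum ratios, so these values restate the ratios from another side and are not separate evidence. In bulk RNA, fewer cells with a transcript and less of it per cell cannot be told apart.

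**Figure D3:**
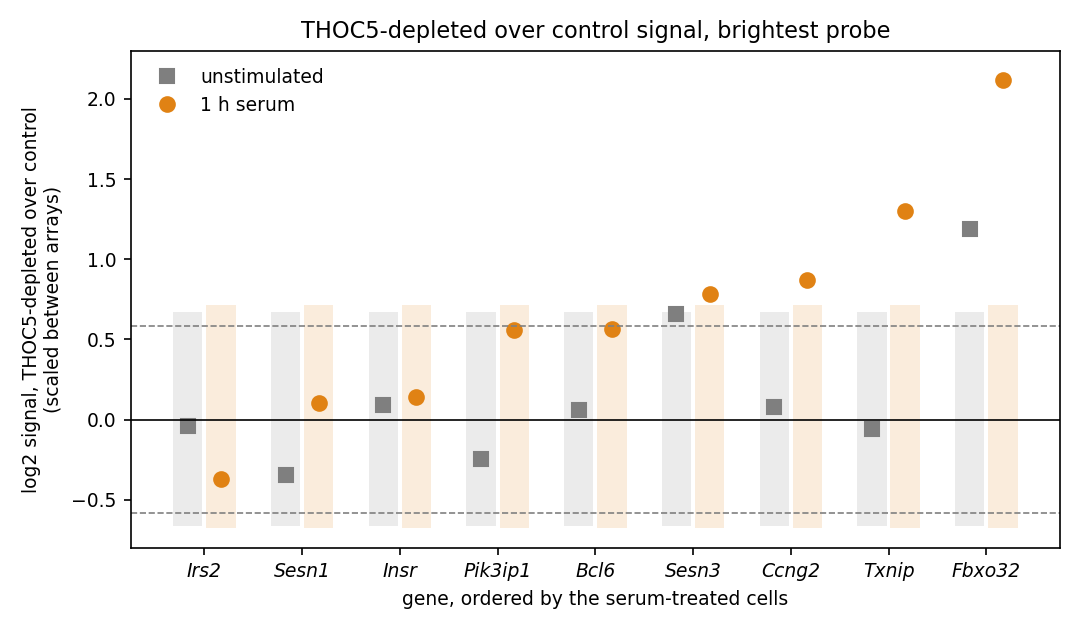
Log2 signal of THOC5-depleted over control cells, scaled between arrays, for the brightest probe of each gene in unstimulated cells (grey squares) and after 1 h of serum (orange circles). Shaded bars span the 5th to 95th percentile of all genes and dashed lines mark 1.5-fold. Fbxo32 moves from 1.19 to 2.11 and Ccng2 from 0.08 to 0.87, while Irs2 moves from -0.04 to -0.37.

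Other genes of the pathway were read from 3 lists. Of 24 genes for FoxO factors and their PI3K, AKT and SGK inputs, 21 were tested in control cells, where 0 fell and 3 rose with serum, against 5.82% and 6.71% of all genes. Sgk1, a kinase that phosphorylates FoxO proteins and is itself a serum-induced gene, rose 4.56-fold in control and 3.55-fold in THOC5-depleted cells. Foxo1 rose from 896 to 1433 in control cells, with a ratio of 0.91 after THOC5 depletion, and Foxo3 and Foxo4 were not well above background in any channel with their brightest probes. Sirt1, a deacetylase that acts on FoxO proteins, rose 1.71-fold in control cells and had a ratio of 1.23 after THOC5 depletion. The PI3K regulatory subunit gene Pik3r2 had a ratio of 0.73 on the control array and 0.90 on the other.

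Of 29 other textbook FoxO targets, 22 were tested in control cells, where 1 fell and 2 rose, with a median log2 ratio of 0.01, against the 5.82% of all genes that fell and the 6.71% that rose. The one that fell was Gadd45a, a growth-arrest gene, with a signal of 3996 before and 2434 after serum in control cells and of 5222 and 6566 in THOC5-depleted cells. Bcl2l11, which encodes the death-inducing protein Bim, rose from 48.9 to 134 in control cells and read 194 and 176 in THOC5-depleted cells. Cited2, a transcriptional co-regulator, rose from 2240 to 4708 in control cells and had a ratio of 1.47 after THOC5 depletion. Sesn2, the third sestrin, had ratios of 1.40 and 1.13, on the other side of 1 from Sesn1 in control cells. In THOC5-depleted cells 0 of this list fell and 2 rose, namely the zinc-finger factor gene Klf2 (3.62-fold) and the catalase gene Cat (1.53-fold), which are named after their values were seen. The shares of all genes there were 1.55% lower and 3.48% higher.

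Of 16 relatives of the 9 genes in sequence or function, 13 were tested in control cells, where 3 fell and 1 rose, against 5.82% and 6.71% of all genes. Irs1, the other main insulin receptor substrate, fell 1.86-fold in control cells, opposite to Irs2, and had a log2 ratio of -0.04 in THOC5-depleted cells. It read 4431 before and 2386 after serum in control cells, and 1936 and 1886 in THOC5-depleted cells. Its signal was thus already 1.84-fold lower in unstimulated THOC5-depleted cells after scaling. The arrestin-domain genes Arrdc2 and Arrdc3, of the same family as Txnip, fell 1.74-fold and 1.69-fold in control cells and had log2 ratios of -0.18 and 0.16 in THOC5-depleted cells. Bcl6b, the closest relative of Bcl6, rose 1.71-fold in control cells and read only 43.2 and 46.7 in THOC5-depleted cells. In those cells 0 of the 14 relatives tested passed the limit in either direction, on an array where 1.55% of all genes fell and 3.48% rose. Before serum, 3 relatives (Irs1, Igf1r and Bcl6b) were lower in THOC5-depleted than in control cells by the limit and 1 (Pik3r1) was higher. The shares of all genes for that comparison were 6.22% and 6.3%.

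**Figure D4:**
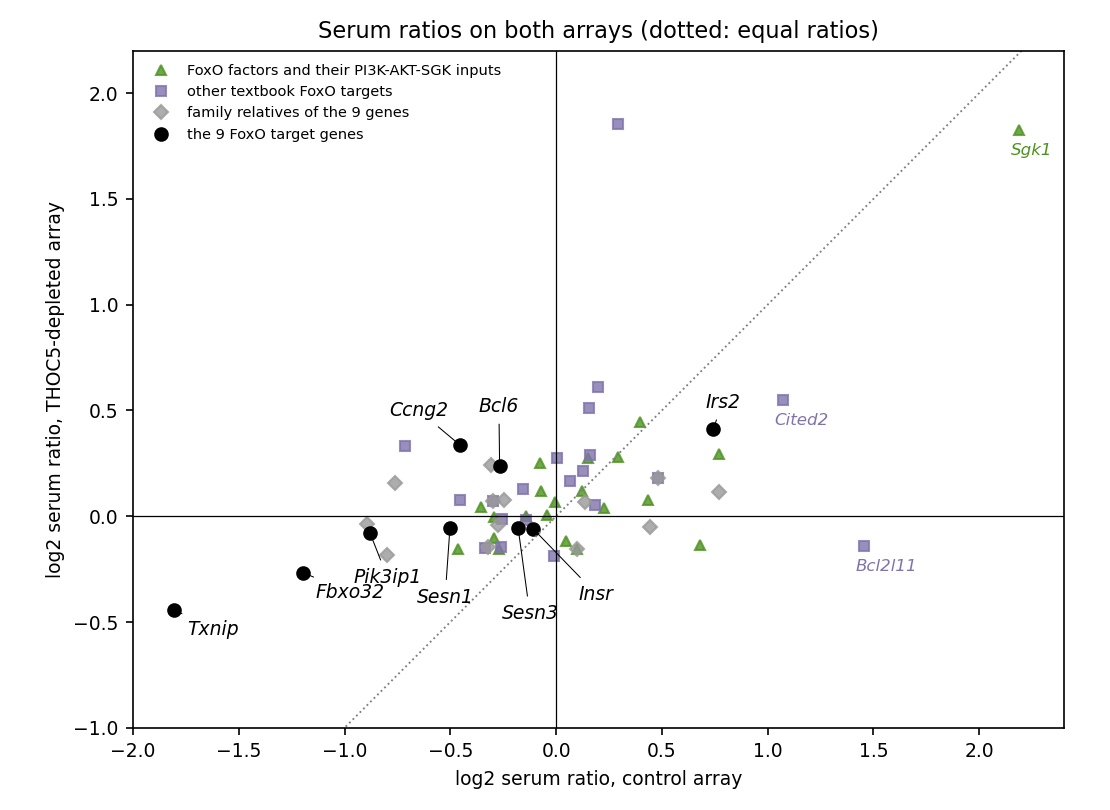
Log2 serum ratio on the control array (horizontal axis) against that on the THOC5-depleted array (vertical axis) for the 9 genes (black circles) and for genes of the 3 pathway lists that were well above background in all 4 channels. The dotted line marks equal ratios. Txnip, Fbxo32 and Pik3ip1 lie far left of the dotted line, Ccng2 and Bcl6 lie above 0 on the vertical and below 0 on the horizontal axis, and Sgk1 lies at 2.19 and 1.83.

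The genes whose pattern was most like that of Txnip were sought among 11221 genes with all 4 signals above 200. Likeness was the distance over 3 values, namely both serum log2 ratios and the unstimulated difference between the arrays. The 5 nearest were Fkbpl (distance 0.30), Zfp503 (0.37), Homez (0.40), 1700052K11Rik (0.41) and Zfp61 (0.44). In control cells their serum log2 ratios ran from -1.92 (Zfp503) to -1.42 (1700052K11Rik), and in THOC5-depleted cells from -0.64 (Zfp503) to -0.24 (Zfp61). None of the other 8 FoxO targets was among them, which is likely for any 8 genes when only 5 of 11221 are taken.

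Several whole-array values bear on these results. The immediate early genes Fos, Egr1, Ier2 and Junb, known to be induced by serum, were all higher on both arrays, from 4.70-fold (Junb, THOC5-depleted) to 93.4-fold (Fos, THOC5-depleted). Thoc5 itself read 4808 and 3047 in control cells and 546 and 455 in THOC5-depleted cells, or 7.08-fold lower in unstimulated cells after scaling. All 10 fibroblast markers were well above background, and 2 of them, Pdgfra and Col3a1, were lower by 1.5-fold or more after serum in control cells, with log2 ratios of -1.06 and -0.67, against 5.82% of all genes. In unstimulated THOC5-depleted cells 3 of the 10, Pdgfra, Col3a1 and Dcn, were lower than in control cells, with log2 differences of -1.28, -1.13 and -0.97, against 6.22% of all genes that were lower. Among markers of other cell types, 1 of 3 for leukocytes, 2 of 4 for epithelium, 3 of 3 for endothelium, 2 of 4 for skeletal muscle and 1 of 3 for adipocytes were well above background in all 4 channels. In unstimulated cells, 4 of these 17 markers differed between the arrays by 1.5-fold or more, named here after their values were seen, against 6.22% of all genes lower and 6.3% higher. Those shares are of tested genes only. Of the 17 markers, Cdh1, Myog, Adipoq and Plin1 were not well above background in any channel and Myh3 was not in Cy3. They could not be called, so the count among tested markers is out of fewer than 17. Cdh5 was 1.78-fold lower and Epcam at least 2.66-fold lower in THOC5-depleted cells, while Acta1 was 1.59-fold and Cd68 2.34-fold higher. The control signal of Cd68 was not well above background, so its value is uncertain. With serum, Krt18 was higher in control cells (log2 ratio 0.67), Krt8 lower in THOC5-depleted cells (-0.78), and Myh3, not well above background in Cy3, higher on both arrays (log2 ratios of at least 0.75 and 1.34). The part of cell state or composition in the FoxO target values was not tested. Between 62.1% and 64.4% of spots were well above background and 0 were saturated.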

How the data were processed

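RNA was measured on 2 two-colour Agilent arrays. The authors deposited the scanner output (Agilent Feature Extraction 10.7.3.1, probes placed on mm9). Per the file headers, its processed signal is an intensity with the background subtracted and the dyes balanced within each array (linear and LOWESS), not scaled between arrays, and the deposited log10 ratio is Cy5 over Cy3. The authors' series table equalled the size of that log10 ratio within 0.0001, without its sign, and served as an alternative, signed by the scanner ratio. The deposited flags mark spots well above background.

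Outlier spots were left out (239 and 234), spots of a probe were averaged on the log2 scale, and the brightest probe stood for a gene. A gene was tested with 1 channel well above background, and a dimmer channel was raised to the lowest signal that was. Called means 1.5-fold. Between arrays, limma 3.58.1 (Aquantile) was used. For each list, up to 4 genes with the largest control log2 ratio in either direction, among those well above background in all 4 channels, are named. The procedure was run on simulated spots with independent noise and with shifts larger than the limit. That simulation holds no spread between probes or cultures, so it checks the code and not the calls made here. The members and lists were chosen with earlier results of these data known. R 4.3.3, Python 3.11.15, numpy 2.4.6, pandas 2.3.3 and matplotlib 3.10.9 were used. The number of columns not mapped to a sample is 0. Array number limits the precision.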

Additional observations from a re-analysis of the deposited data

Results flagged for a closer look

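Ccng2 and Bcl6 had serum log2 ratios in opposite directions on the 2 arrays, each larger than the median SD between probes of a gene. For control cells the value of Ccng2 was -0.45 and that of Bcl6 was -0.27. After THOC5 depletion they were 0.34 and 0.24. With 1 array per condition the difference was not tested, and neither value passed 1.5-fold.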

How the results depend on the processing

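Of 306 single-gene values under alternative settings, 262 moved by less than the median SD between probes, 44 moved by more and 0 called values changed sign. Without dye normalization the number of the 9 genes lower was 1 in control cells (Txnip) and 0 in THOC5-depleted cells, against 0.66% and 0.17% of all genes, and their median log2 ratio was 0.33 in control and 0.68 in THOC5-depleted cells, while the median of all genes was 0.84 and 0.75. Relative to those medians the members lay at -0.51 and -0.07, with 3 and 0 genes past the limit. At a limit of 1.3, the number lower was 5 in control cells (adding Sesn1 and Ccng2) and 1 in THOC5-depleted cells, against 12.4% and 5.12% of all genes. With the log ratios of the THOC5-depleted array stretched to the spread of the control array, the number lower was 1 there, against 3.80% of all genes. Without scaling between arrays, the median log2 difference of THOC5-depleted over control cells was -0.26 in unstimulated and 0.28 in serum-treated cells, which relative to all genes is -0.0021 and 0.53. The causes were not tested, apart from the shift of all genes. Under normexp and loess, a floor of 50, centring, the mean of all probes, outlier spots kept, and a filter on all 4 channels, the counts stayed at 3 (Txnip, Fbxo32 and Pik3ip1) and 0, while the share of all genes ran from 3.17% to 5.82% in control and from 0.37% to 1.55% in THOC5-depleted cells, lowest under normexp and loess. The series table, which takes its sign from the scanner ratio, and naming by accession, which finds the same 12 probes, hold the same member values by construction. A floor of 50, outlier spots kept and the filter on all 4 channels could not move them either. The brightest probes of the 9 genes lie above that floor, are well above background in all 4 channels and have no outlier spot. Stretching leaves the control array as it was, and the mean of all probes can change only Txnip and Insr. These fixed values are among the 262 and do not speak for stability. At a limit of 2 the counts were 2 and 0, against 1.73% and 0.38% of all genes. No paired analysis was possible because there is 1 array per condition. Dim signals limit the third Insr probe.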
